A study of Mus musculus with 2 samples.

Results

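The StAR-related lipid transfer (START) genes Star, Stard3, Stard4, Stard5, Stard6, Stard7, Stard8, Stard9, Stard10 and Stard13 were taken by symbol, and all 10 were found among the 55536 genes of the deposited tables. Total RNA had been sequenced from the adrenal glands of adult female mice, 8 to 10 months old, from a cross of 5xFAD with CAST mice. 5xFAD is a transgenic model of Alzheimer's disease and CAST a wild-derived strain. Each library was made from 300 ng of RNA with a directional kit after reduction of ribosomal RNA, and ERCC spike-in RNA was added. The labels give a single group of 2 biological replicates, called mouse 1 and mouse 2 here, and whether each animal carried the transgene was not examined. Since 1 donor identifier covers both, only the replicate numbers mark them as separate animals, and a difference between them may be technical.

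A START domain folds into a pocket that holds a single lipid molecule and carries it between membranes. In the adrenal cortex, Star (STARD1) brings cholesterol to the inner mitochondrial membrane, where the first enzyme of steroid synthesis cuts its side chain, and this step limits how fast steroids are made. The relatives differ in cargo and in attached domains. Stard3, Stard4, Stard5 and Stard6 are grouped with Star here as sterol carriers. Stard7 and Stard10 bind phospholipids, Stard8 and Stard13 are large proteins with further domains, and Stard9 carries a kinesin motor.

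Depth came to 36558609 expected counts over all genes in mouse 1, and to 32192201 in mouse 2. Markers fitted the labelled tissue: all 8 cortex genes and all 6 genes of the medulla reached 1 TPM (a level per length, scaled to the library) in both mice, while none of the 5 kidney, 4 liver, 5 ovary or 4 testis germ cell genes did. The 8 adipocyte genes summed to 1449 TPM in mouse 1 and 2431 TPM in mouse 2, and 7 of them passed the test used below as higher in mouse 2. All 5 immediate early genes were lower there, from 372 to 185 TPM in sum. Red blood cell genes fell together too, from 747 to 409 TPM, in 5 of 5. On TMM-scaled counts, the scale of the ratios below, 6 of 8 cortex genes and 5 of 6 medulla genes passed as lower in mouse 2, with median log2 ratios of -0.11 and -0.22. In TPM 6 of the 8 cortex genes were higher there and 4 of the 6 medulla genes lower. TPM is not rescaled between mice: nuclear protein-coding genes held 29.5% of TPM in mouse 1 and 32.3% in mouse 2. In a bulk sample, fewer cells of a type and less RNA per cell cannot be told apart.

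The sequences below carry the questions on which the family's values turned. The first is a coding stretch that both annotated Star transcripts share, printed because no read from it can tell them apart. It runs from the start codon, over 300 bases of 3 exons (mm10, chromosome 8, 25808569 to 25809931, plus strand), with capitals on the start codon and on the first 3 bases of each following exon. The other sequences are the 2 exons of the Stard9 transcript Stard9-203 that Stard9-206 lacks, while a longer last exon of Stard9-203 is not printed. They are exon 15 (chromosome 2, 120683673 to 120683744, plus strand) and exon 16 up to the annotated stop codon, which is in capitals (120684592 to 120684618). All are from the GENCODE M21 transcripts.
Star shared coding stretch: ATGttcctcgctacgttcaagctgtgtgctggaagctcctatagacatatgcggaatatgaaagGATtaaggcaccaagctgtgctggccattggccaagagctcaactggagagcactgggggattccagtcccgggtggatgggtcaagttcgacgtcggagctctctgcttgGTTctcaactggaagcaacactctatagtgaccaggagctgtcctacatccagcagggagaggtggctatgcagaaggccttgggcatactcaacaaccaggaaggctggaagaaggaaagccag
Stard9-203 exon 15: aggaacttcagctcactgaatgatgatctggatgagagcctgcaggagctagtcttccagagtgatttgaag
Stard9-203 exon 16: ttaaaagaacaatgtacgctcactTGA

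Star (chromosome 8, 25806555 to 25815982, mm10) stood far above the rest of its family. Its level was 5127 TPM in mouse 1 and 5742 TPM in mouse 2, a mean of 5434 ± 435 TPM (SD, n = 2). Stard7, the next member, stood at 31.2 and 38.5 TPM, so that Star was 164-fold and 149-fold higher, or 93.3-fold and 87.1-fold with both put on the length of their longest coding transcript, as described below. Star supplied 98.3% of the summed TPM of the 10 genes in each mouse. The other 9 members together reached 88.05 and 100.5 TPM. In expected counts, which are not per length, Star held 424593 and 403177, and the other 9 together held 10485 and 9781.

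**Figure D1:**
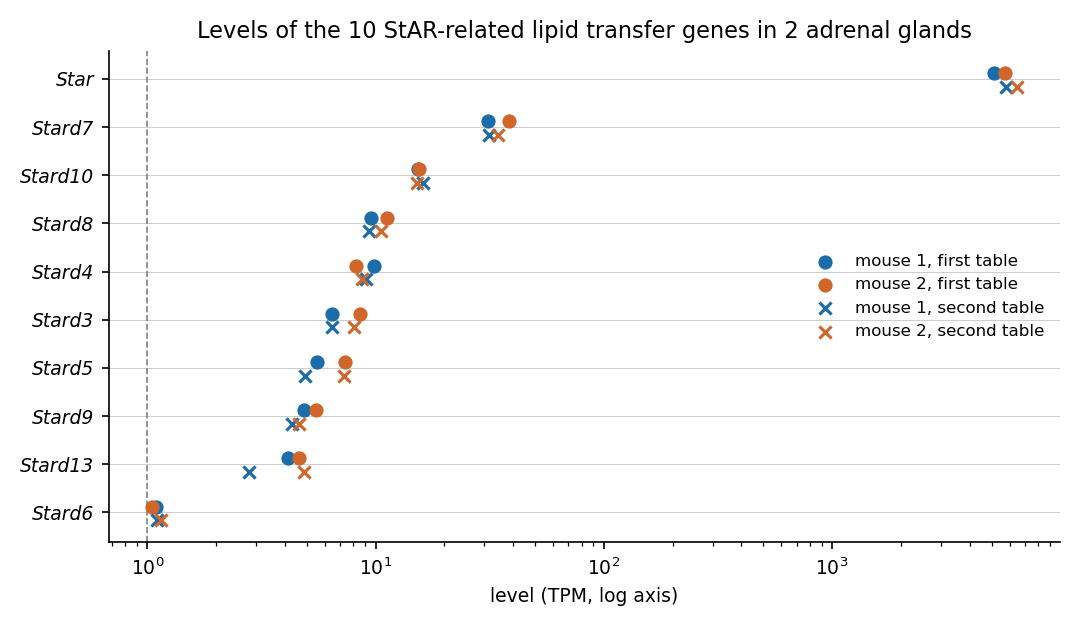
Level of each member in TPM (log axis); circles are the first quantification and crosses the second, blue mouse 1 and orange mouse 2, and the dashed line marks 1 TPM. Star lies at 5127 to 6425 TPM in the 4 values, and no other member passes 38.5 TPM.

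By deposited TPM, Star ranked 1 among 22015 nuclear protein-coding genes in both mice. Just below it stood Hsd3b1, which makes progesterone from pregnenolone, at 5098 and 5673 TPM, and Cyp21a1, the steroid 21-hydroxylase, at 4853 and 5124 TPM. The ranges of Star and Hsd3b1 overlapped, although Star was the higher of the pair in each mouse. Those of Star and Cyp21a1 all but touched, with the lower Star value at 5127 and the higher Cyp21a1 value at 5124 TPM.

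The first place in TPM changed with how the reads of Star were placed on its annotated transcripts. Star-201, the full-length messenger RNA, has 4046 bases, and Star-202, whose 3′ end is marked in the annotation as not found, has 633. Of these 633 bases, 566 lie in Star-201 as well, and the 67 that do not are outside the coding part. All 471 coding bases of Star-202 are shared, including the stretch printed above. Star-202 nevertheless held 56.02% of the gene's TPM in mouse 1 and 53.01% in mouse 2, from 62328 and 53315 of its expected counts. The second quantification gave it 63.8% and 61.2%.

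With each gene's count put on the length of its longest protein-coding transcript, an alternative chosen after seeing the data, Star fell to 2643 and 3109. For this, TPM was multiplied by the deposited effective length and divided by the longest length less a fixed number of bases. The values were not rescaled to the library, so they are not TPM and serve to compare genes. Star then ranked 4 in mouse 1 and 3 in mouse 2 among 21787 genes, below Hsd3b1 at 4689 and 5280 and Cyp21a1 at 4740 and 5014. Cyp11b1, which makes corticosterone, stood at 2769 and 2800, inside the range of Star. By expected count and by the TPM of the second quantification, Star ranked 1 in both mice. Which length fits the Star messenger RNA of the gland was not tested.

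**Figure D2:**
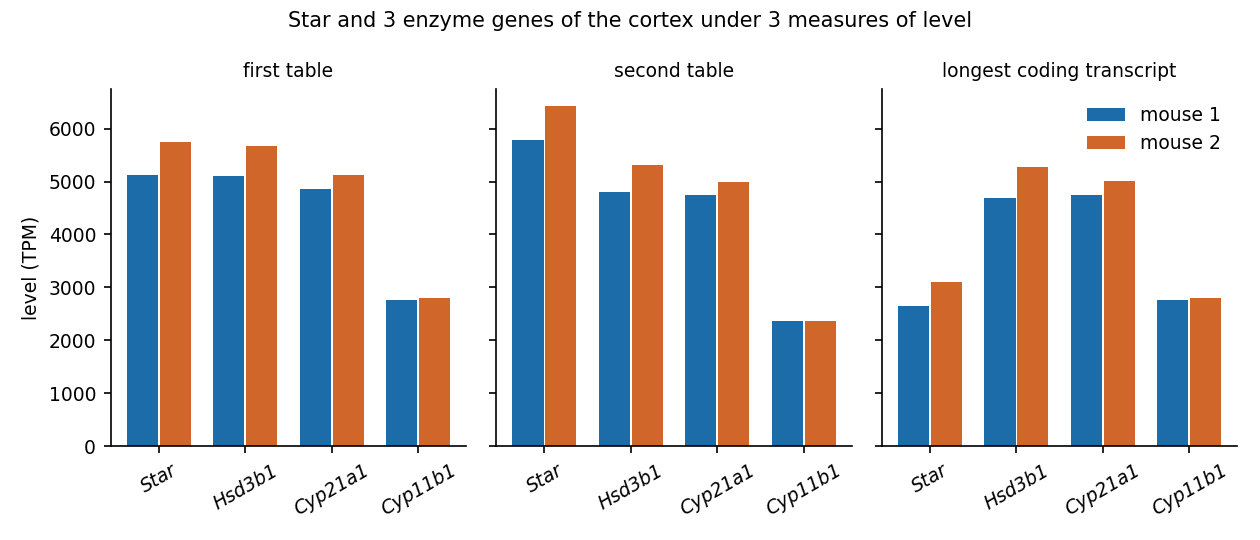
Level in TPM (bars from 0) of Star and 3 cortex enzyme genes in mouse 1 (blue) and mouse 2 (orange), by the first quantification, the second, and the first with counts put on each gene's longest coding transcript. Star is highest in the first 2 panels and falls to 2643 and 3109 in the last, whose values were not rescaled to TPM.

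The 4 members grouped with Star as sterol carriers were all low beside Star, with means from 1.07 to 9.02 TPM. Their sums were 22.85 and 25.21 TPM in the mice. The median was 1.85 TPM over all nuclear protein-coding genes, and 10.3 TPM over those at 1 TPM in both mice. The small cytosolic carrier Stard4 (chromosome 18, 33199355 to 33213862), whose gene is under the control of sterol levels, measured 9.8 TPM in the first mouse and 8.23 TPM in the second. Stard3 (MLN64; chromosome 11, 98358368 to 98381112), which is anchored in late endosomes and tethers them to the endoplasmic reticulum, stood at 6.43 and 8.58 TPM. Stard5 (chromosome 7, 83631959 to 83653127), another cytosolic carrier, stood at 5.53 and 7.35 TPM. Stard4 was higher in mouse 1, while Stard3 and Stard5 were higher in mouse 2 in TPM.

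Stard6 (chromosome 18, 70472454 to 70501066), known best from the testis, was the lowest member at 1.09 and 1.05 TPM, from 46.95 and 38 expected counts. It lay just above the 1 TPM used as the detection threshold in both mice. Its leading transcript has 1496 bases, and 50.1% of them match another gene at 95% identity or more. The longest such stretch is 693 bases identical to Gm9795, a processed pseudogene on chromosome 10 that was assigned 11.05 counts in mouse 1 and 0 in mouse 2. With so few counts and this shared sequence, the Stard6 level is uncertain. The deposited posterior SD, 4.22 in mouse 1 and 1.47 in mouse 2, was small beside the counts of 46.95 and 38. None of the 4 testis germ cell markers reached 1 TPM.

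Phospholipid carriers came second after Star. Stard7 (chromosome 2, 127270218 to 127298932), which brings phosphatidylcholine to mitochondria, had a mean of 34.8 ± 5.12 TPM, from 3477 and 3536 counts. Stard10 (chromosome 7, 101317086 to 101346626), a carrier of phosphatidylcholine and phosphatidylethanolamine, stood at 15.41 and 15.48 TPM. These members and Star were the only 3 of the 10 to reach 10 TPM in both mice, a level that 26.1% of nuclear protein-coding genes reached.

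The large multidomain members were all present. Stard8 (DLC3; chromosome X, 99003248 to 99074728) measured 9.58 and 11.21 TPM. Stard13 (DLC2; chromosome 5, 151037510 to 151233836) stood at 4.15 and 4.6 TPM. Stard9 (chromosome 2, 120629121 to 120731895), a giant mitotic kinesin, stood at 4.84 and 5.51 TPM, and over a leading transcript of 15004 bases it held 2007 and 1825 counts, more than every member but Star and Stard7.

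All 10 members reached 1 TPM in both mice and in both quantifications, which 54.1% of nuclear protein-coding genes did in the first. The order by mean TPM was Star, Stard7, Stard10, Stard8, Stard4, Stard3, Stard5, Stard9, Stard13 and Stard6. The ranges of the 2 mice overlapped between the neighbours Stard8 and Stard4, Stard4 and Stard3, and Stard3 and Stard5, while within each mouse Stard3 stood above Stard5 in both quantifications. The order of Stard8 and Stard4, and of Stard4 and Stard3, differed between the mice in the first quantification. TPM was higher in mouse 2 for 8 members, all but Stard4 and Stard6. The share of all genes with a higher TPM in mouse 2 was not computed. In the second quantification Stard10 and Stard6 changed direction. On TMM-scaled counts, log2 ratios were above 0 for 5 members and below 0 for 5. Those of Stard8, Stard9 and Stard10 were opposite to their TPM, so their direction depends on the scale.

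The libraries were then compared on expected counts scaled by TMM, with an exact binomial test adjusted over 17666 genes. This compares 2 libraries, not conditions, and has no replicate check. All 10 members passed the filter of 10 mean counts, and 4 passed the test, 3 of them higher and 1 lower in mouse 2. Of all tested genes, 21.3% passed, 10.4% as higher and 11.0% as lower. No member was 2-fold apart, against 2.96% of the tested genes. The median size of the log2 ratio was 0.14 over the members and 0.13 over all tested genes. The latter reach down to 10 mean counts, and no set of genes matched to the members in counts was compared.

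**Figure D3:**
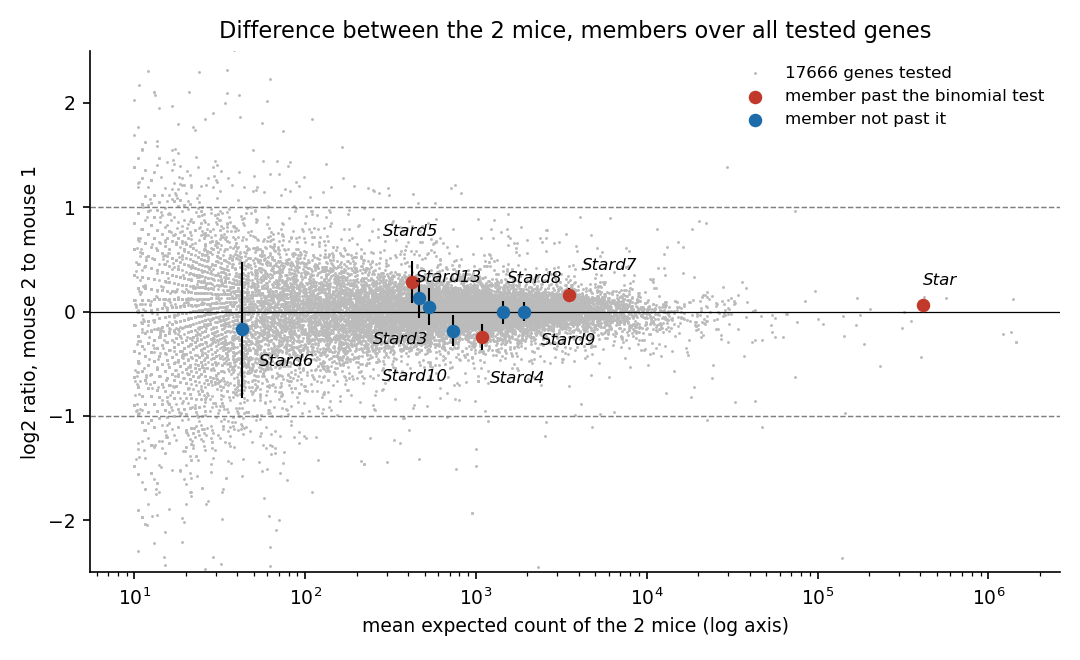
Log2 ratio of mouse 2 to mouse 1 against the mean expected count (log axis) for 17666 genes in grey, with members in red where the binomial test called them and blue where it did not; bars are exact 95% counting intervals, dashed lines mark 2-fold, and 45 genes beyond 2.5 on the ratio axis are not drawn. Every member lies inside the dashed lines, and the widest interval is that of Stard6.

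Among the sterol carriers, Star was 0.06 higher in mouse 2 on the log2 scale (exact 95% counting interval 0.05 to 0.07, adjusted p = 2.24e-77, exact binomial test). That is a 1.04-fold difference, and its interval is narrow because Star has the most counts of any nuclear protein-coding gene. Stard4 fell by 0.24 (interval -0.37 to -0.12, adjusted p = 0.00106), from 1222 to 941 counts. Stard5 was 0.28 higher (interval 0.09 to 0.48, adjusted p = 0.024), from 400.0 to 444 counts. Stard3 did not pass, at 0.13 (interval -0.06 to 0.32, adjusted p = 0.362), although its deposited TPM intervals, of unstated level, did not overlap between the mice. Stard6 stood at -0.16 with an interval from -0.83 to 0.48.

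Stard7 was 0.16 higher in mouse 2 (interval 0.09 to 0.23, adjusted p = 5.79e-05, exact binomial test). Stard10 stood at -0.18 (interval -0.33 to -0.03) and missed the threshold at an adjusted p of 0.0717. It passed with ERCC scaling (0.0379) and in the second quantification (0.0129), and its adjusted p ranged from 0.0129 to 0.205 over 6 alternatives. The remaining members lay close to 0: Stard8 at -0.01 (interval -0.11 to 0.10), Stard9 at -0.003 (interval -0.09 to 0.09) and Stard13 at 0.05 (interval -0.13 to 0.22). Adipocyte genes were higher in mouse 2 along with Star, Stard5 and Stard7, with a median log2 ratio of 0.66, and the part of fat in these differences was not tested. Stard4 was lower along with the immediate early and red blood cell genes, whose median log2 ratios were -2.44 and -0.99, and with most cortex and medulla markers, and their part was likewise not tested.

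Some places were found where reads of a member could be split with other genes. Over stretches of at least 50 bases at 95% identity, no member's transcript matched another member, and 7 of the 10 matched no gene at all. Stard13 shares 332 bases with Gm42906, annotated within it, which held 0 and 6.13 counts, and Stard5 shares 66 bases with other genes. Gm45838, on the same strand, overlaps 101 exonic bases of Stard5 and held 40 and 41 counts. Over all annotated exons of Stard9, those of Cdan1 overlap 2207 bases on the opposite strand, and Cdan1 held 689 and 707 counts. Those of Il16 likewise overlap 1202 bases of Stard5. On the opposite strand of Stard6, exons of 4930503L19Rik overlap 56 bases, and that gene held 122 and 147 counts. Whether the counting used strand is not given in the sources used here, so reads there cannot be told apart with certainty. Stard8 and Stard13, which have the same domains, aligned over 1579 bases at 66.3% identity, below that limit.

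The transcript tables gave each form's share of its gene's TPM. By that share, 1 transcript led in both mice and in both quantifications for 8 of the 10 members. Star-202 was among these leaders by TPM, whereas Star-201 held more of the expected counts of Star, 362265 and 349862. Stard7-202 was the clearest, with 84.47% and 86.05% of Stard7 TPM in mouse 1 and mouse 2, followed by Stard8-201 with 76.92% and 73.32%. Stard9 and Stard10 were the exceptions. Of 65 annotated transcripts, 8 differed by at least 10 percentage points between the mice. Some of the 65 were listed at 0 in both mice. Neither this count nor that of members with 1 leader was computed over all genes, so neither can be called high or low.

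**Figure D4:**
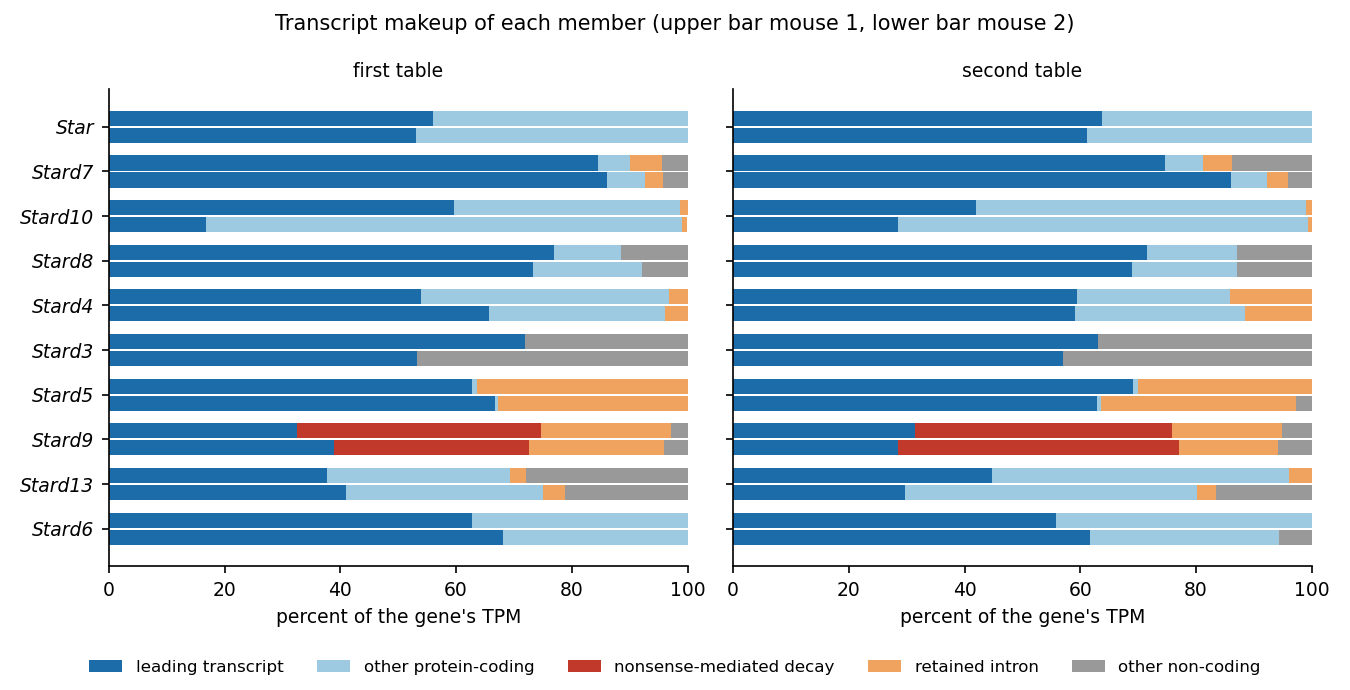
Percent of each member's TPM by kind of transcript in the first (left) and second (right) quantification; the upper bar of a pair is mouse 1 and the lower mouse 2. Nonsense-mediated decay transcripts (red) are seen in Stard9 alone, and the leading transcript of Stard10 (dark blue) falls from 59.72% to 16.84% in the first quantification.

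In Stard9, a large share of the RNA was assigned to transcripts annotated as targets of nonsense-mediated decay, the pathway that destroys messages with an early stop. These held 42.15% of Stard9 TPM in mouse 1 and 33.76% in mouse 2, and 44.4% and 48.6% in the second quantification. The protein-coding Stard9-206 led the first quantification with 32.52% and 38.82%, and Stard9-203 led the second with 32.3% and 38.4%. The quantifications also differed in direction: Stard9-203 was lower in mouse 2 in the first, at 26.52% and 20.16%, and higher in the second. Stard9-203 carries the exons of 72 and 127 bases printed above, and its reading frame ends at the TGA that starts at base 25 of exon 16. Its annotated coding part is 1350 bases, against 13683 in Stard9-206. Both long forms share 14999 bases, so few reads separate them. The 400 bases that Stard9-203 alone holds include a longer end of its last exon, of 1518 bases against 1317 in Stard9-206. Which of these 400 bases gave Stard9-203 its share was not tested.

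Stard10 is annotated with alternative first exons. Stard10-202 and Stard10-203 start within 33 bases of each other, Stard10-201 starts 4027 bases downstream and Stard10-211 4367 bases downstream. Stard10-201, 203 and 211 share 1 coding part of 873 bases, while Stard10-202 has 1092. Stard10-201 held 59.72% of the gene's TPM in mouse 1 and 16.84% in mouse 2, and in the second quantification 41.9% and 28.6%. The upstream pair held 14.88% and 42.93% in the first quantification and 43.4% and 55.02% in the second. Stard10-211, the leading transcript of mouse 2 in the first quantification, held 22.25% and 38.54% there and 10.9% and 14.6% in the second. The annotation tags Stard10-211 as not organism-supported, and by the deposited posterior mean it held 11.63% and 26.45%. Stard10-201 shares 1160 of the 1258 bases of Stard10-211 and 1263 of the 1375 of Stard10-203, so few reads separate them. Both quantifications thus placed less of Stard10 on the start of Stard10-201 in mouse 2 and more on the other starts, but the shares in mouse 1 differed widely between them.

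**Figure D5:**
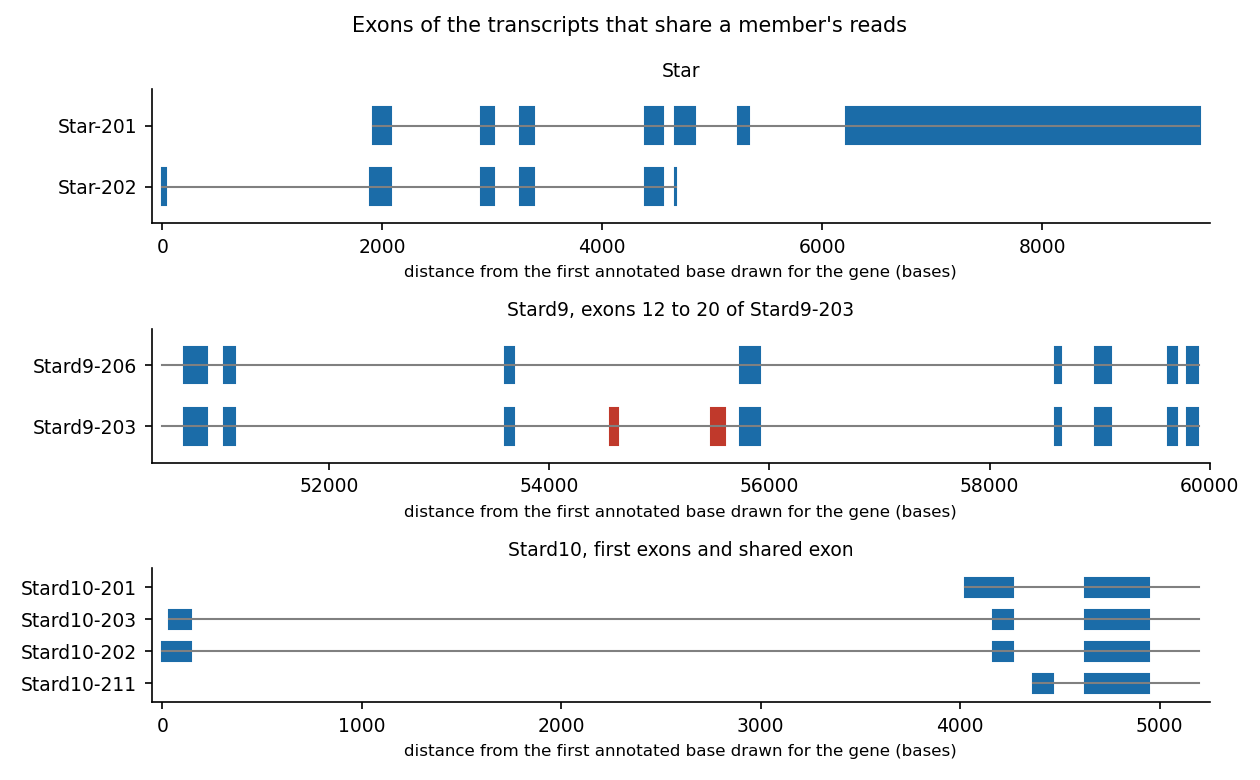
Exons (boxes) of Star, of Stard9 around exons 15 and 16 of Stard9-203 (red, not in Stard9-206), and of the first exons of Stard10, by distance in bases from the first annotated base drawn for the gene. Star-202 ends in the fifth exon of Star-201 and has a first exon of its own, and the Stard10 transcripts start at 0 to 33, 4027 and 4367 bases.

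The TPM shares of the short coding transcripts of Stard4 differed between the mice, on few counts. Stard4-201, with 5097 bases, led with 54.0% in mouse 1 and 65.63% in mouse 2, and with 59.4% and 59.1% in the second quantification. Of the expected counts of Stard4, Stard4-201 held 88.1% and 94.2%. Stard4-203 held 34.97% of TPM in mouse 1, from 117 counts, and was listed at 0 in mouse 2. Stard4-202 held 7.84% and 30.39%, from 17.15 and 45.01 counts. For these short forms the second quantification gave smaller differences in the same directions, at 16.5% and 7.32% for Stard4-203 and 9.93% and 22% for Stard4-202. All 648 bases of Stard4-202 lie in Stard4-201.

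By share of TPM, Stard3 and Stard5 carried much RNA that is annotated as non-coding, and less of it by share of expected counts. In Stard3, the 6 processed transcripts without a reading frame held 28.04% in mouse 1 and 46.8% in mouse 2, and the second quantification gave 36.9% and 43.1%. The protein-coding Stard3-201 held the rest, from 371 and 296 counts. Of the expected counts of Stard3, the processed forms held 20.2% and 36.3%. The largest non-coding form, Stard3-206, held 10.58% and 18.14% and has an additional exon of 163 bases. In Stard5, retained-intron transcripts held 36.45% and 32.7%, and 30.1% and 33.6% in the second quantification. Their share of the expected counts of Stard5 was 14.6% in mouse 1 and 12.7% in mouse 2. Such forms were not particular to these members. Retained-intron transcripts held 22.46% and 23.32% of Stard9. Processed transcripts held 27.85% and 21.17% of Stard13, but 0% and 16.5% in the second quantification and 2.1% and 1.8% of its expected counts. For Stard13, the share of Stard13-202 was 37.68% and 40.98%, and in the second quantification 44.7% and 29.6%, in the other direction. For Stard6, Stard6-201 held 62.8% and 68.16%, but by the deposited posterior mean 32.86% and 39.29%.

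Other genes of the START fold, outside the 10, had means from 0.305 to 40.15 TPM. Of 5 tested, 2 passed as higher in mouse 2 and none as lower, against 10.4% and 11.0% of all tested genes. Col4a3bp (CERT), which carries ceramide, stood at 40.15 ± 2.40 TPM and Dlc1, a relative of Stard8 and Stard13, at 28.7 ± 3.47 TPM. Acot11, an acyl-CoA thioesterase of brown fat, had the largest ratio of the 5, at 0.70, with 8.68 TPM in mouse 1 and 16.63 TPM in mouse 2. It exceeded the ratio of every member and moved with the adipocyte genes, whose part in it was not tested. Col4a3bp had the lowest ratio, at -0.03.

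Of 14 genes listed as partners in the hand-over of sterols, 13 reached 1 TPM in both mice. In the binomial test, 1 passed as higher and 1 as lower in mouse 2, and 21.3% of all tested genes passed either way. Gramd1b, a sterol carrier at contacts with the plasma membrane, was the most abundant at 252.8 ± 13.9 TPM, followed by the mitochondrial channel gene Vdac1 at 149 ± 7.69 TPM. Parl, a mitochondrial protease, was 0.21 higher, and Gramd1c was lowest at -0.46 without passing. Vapa, an anchor of the endoplasmic reticulum that Stard3 binds, passed at -0.11, although its TPM was higher in mouse 2.

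Of 5 genes for the first enzymes after cholesterol import, 3 passed as lower in mouse 2 on TMM-scaled counts, against 11.0% of all tested genes, and none as higher. In TPM 4 of the 5 were higher in mouse 2, so their direction depends on the scale. Hsd3b1 and Cyp11a1, the side-chain cleavage enzyme, were the most abundant, the latter at 2218 and 2284 TPM. On scaled counts the log2 ratio of Cyp11a1 was -0.13, opposite to its TPM, and that of Fdx1, the ferredoxin that feeds it electrons, was -0.42. The highest ratio was that of Fdxr, at 0.02, which did not pass.

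On TMM-scaled counts, genes that control Star passed as lower in 6 of 17 cases and as higher in 1, against 11.0% and 10.4% of all tested genes. By TPM, 10 of the 17 were higher in mouse 2 and 7 lower, so the direction of the list depends on the scale. Nr5a1 (SF-1), which switches on steroid genes, was the most abundant at 253 ± 29.6 TPM and passed as 0.08 higher. Nr4a1, a nuclear receptor gene induced by corticotropin, went from 256.8 TPM in mouse 1 to 158 TPM in mouse 2 and had the lowest ratio, at -0.82. It is also 1 of the 5 immediate early genes, all of which were lower in mouse 2, and the part of that shift was not tested. The highest ratio was 0.12, of Nr0b1, which did not pass.

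For cholesterol sensing and supply, 3 of 7 genes passed as higher and 3 as lower, against 10.4% and 11.0% of all tested genes, in a test that calls small differences in genes of many counts. Scarb1, the receptor that takes up cholesterol from high-density lipoprotein, was the most abundant, followed by Soat1, which stores cholesterol as esters, at 447 ± 1.46 TPM. Scarb1 went from 975 TPM in mouse 1 to 697 TPM in mouse 2 and had the lowest ratio, at -0.63. Lipe, which releases cholesterol from esters and is also abundant in fat, had the highest, at 0.27.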

How the data were processed

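Total RNA libraries of 2 mice of 1 group were used. Per the file headers, the first gene and transcript tables hold expected counts, TPM, FPKM and the percent of each gene held by a transcript, and deposited text names mm10 and GENCODE M21. A second deposited transcript table holds estimated counts and TPM. Which aligner and quantifiers were run is not given in the sources used here. Expected counts split reads between transcripts by a model, and reads of CAST alleles were placed on another strain's reference. Depth was 36558609 and 32192201 counts, and intervals hold counting error alone, because without molecular identifiers 2 reads may copy 1 molecule.

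Each level is a mean ± SD of the deposited TPM. Ratios took a prior count of 2 and TMM factors (edgeR 4.0.16, R 4.3.3) over genes of at least 10 mean counts. Rounded expected counts entered an exact two-sided binomial test (scipy 1.17.1), adjusted by Benjamini-Hochberg at 0.05. With 1 group no test between groups was made. The test was tried on simulated counts with 200 changed genes and counting noise alone, which is the noise it assumes. That trial holds no variation between animals or libraries, so it cannot check the test on real libraries. Alternatives scaled by ERCC, by total or by median of ratios, or changed count filters, prior counts and TPM thresholds, or used FPKM, nuclear protein-coding genes alone, the second quantification, posterior means and each mouse alone. Near-identical stretches were found with BLAST 2.17.0 for 1 transcript of each member.

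All 10 members are named. Of each pathway list the text names the 2 genes of highest mean TPM and the largest ratio in each direction, and the 2 genes below Star in level. Vapa, Cyp11b1 and the gene pairs sharing reads were named besides, after their values were seen. The members and lists were chosen with earlier results of these data known.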

Additional observations from a re-analysis of the deposited data

How the results depend on the processing

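No paired analysis was possible because the 2 mice form 1 group. The summed level of the 10 members was 5528 TPM, 5215 in mouse 1 alone and 5842 in mouse 2 alone. It was 6191 in the second quantification, whose cause was not tested. It was 17888 scaled to nuclear protein-coding genes and 2952 with counts on the longest coding transcript, both by construction. The latter and the rank by expected counts were chosen after seeing the data. With a threshold of 10 TPM, 3 members were detected in place of 10. The rank of Star fell to 4 on that fixed length and was 1 in the second quantification and by expected counts. The members beyond counting noise were 4 or 5 under 6 alternatives, and 5 with ERCC scaling and in the second quantification, where Stard10 joined. No member was 2-fold apart under 7 alternatives, and no called ratio changed direction. Leading transcript shares moved beyond the SD of the mice for 5 of 10 members in the second quantification and for 4 by the posterior mean, whose cause was not tested. A comparison of member proteins was not run. Depth limits Stard6 most, with 38 counts in mouse 2.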
